A study of Mus musculus with 6 samples.

Results

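Regulators of G protein signaling (RGS proteins) switch G proteins off. A receptor that has bound its ligand loads the Gα subunit with GTP, Gα and the Gβγ pair then act on their effectors, and the RGS domain speeds the hydrolysis of GTP that ends the signal. The family falls into small R4 proteins, which are little more than an RGS domain, RZ proteins, which are tethered to membranes by palmitoylated cysteines, and larger R12 and R7 proteins with further domains. The RGS genes described here were given as 10 gene symbols, *Rgs2*, *Rgs3*, *Rgs4*, *Rgs5*, *Rgs10*, *Rgs12*, *Rgs14*, *Rgs16*, *Rgs17* and *Rgs19*. A probe set with only that symbol was found for 9 of them, among 18820 genes read in all, and *Rgs10* was not analysed here.

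The cells are EpRas cells, a mouse mammary tumor line of BALB/c background made from EpH4 epithelial cells by stable overexpression of the Ha-Ras oncogene, which both groups carry. Control cells (n = 3) were left untreated, and long-term EMT cells (n = 3) were kept for 14 days in 2 ng/ml of TGF-β1, which drives epithelial-mesenchymal transition (EMT). The comparison asks which genes differ once that transition is established. Expression was measured on 6 Affymetrix arrays, 1 for each sample, as log2 values made by the authors with the Robust Multi-array Average (RMA), so that a difference of 1 is a factor of 2.

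The 10 symbols were proposed with the long-term EMT against control values already known, so those values are described here without a test. The criterion for a call was a fold greater than 1.5 together with an adjusted p below 0.05 (limma, adjusted over all 35556 probe sets). Other genes that met it are said to have passed, and to have risen or fallen. Of all genes read, 2.96% met it, 1.47% as higher and 1.49% as lower, and so did 1.92% of all probe sets. The background level is a log2 value of 4.48, the 95th percentile among 1006 probe sets for olfactory receptors, by their mean over the arrays. Probe sets differ in how brightly they bind, so levels of different genes are not compared. In cultures read in bulk, fewer cells using a gene and less RNA per cell cannot be told apart.

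The arrays had median log2 values of 5.38, 5.36 and 5.36 in control replicates 1 to 3 and 5.39, 5.39 and 5.40 in long-term EMT replicates 1 to 3. Control replicate 1 stood apart, with r = 0.987 and 0.984 against the other controls across probe sets, where those correlated at 0.995. Each of those other controls correlated more closely with every long-term EMT array than with control replicate 1. The control with r = 0.9874 against control replicate 1 had 0.9877 to 0.9885 against long-term EMT arrays. The control with r = 0.9836 against it had 0.9874 to 0.9888 against long-term EMT arrays. Of 7 mammary epithelial markers, *Cdh1*, *Epcam* and *Krt14* fell and 4 did not pass, and *Krt8* and *Krt18* differed by -0.003 and 0.01 on the log2 scale. Of 5 endothelial markers *Cdh5* rose and 4 did not pass, and of 4 TGF-β response genes *Ccn2* rose and 3 did not pass. None of 8 leukocyte markers passed (limma), beside 2.96% of all genes. The 1 of 8 at an unadjusted p under 0.05 was *Lyz2*, with a log2 difference of -0.57 and both group means under the background level. *Cd68* lay well above that level, between 8.22 and 9.24, and its groups overlapped. The mean of the list lay between 4.94 and 5.16 on control arrays and between 4.95 and 5.08 on long-term EMT arrays.

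*Rgs16* and *Rgs2*, the members that differed most between the groups, both belong to the R4 group and both lie on mouse chromosome 1. The 250 bases before their annotated starts are shown because these genes have the highest and the lowest log2 difference of the members (RefSeq, GRCm38.p6, chr1:153740103-153740352 on the plus strand for *Rgs16* and chr1:144004150-144004399 on the minus strand for *Rgs2*). Capitals mark the core of a Smad-binding element (CAGAC or GTCTG), the CCAAT box (CCAAT or ATTGG) and the core of a cAMP response element (TGACG or CGTCA).
Rgs16: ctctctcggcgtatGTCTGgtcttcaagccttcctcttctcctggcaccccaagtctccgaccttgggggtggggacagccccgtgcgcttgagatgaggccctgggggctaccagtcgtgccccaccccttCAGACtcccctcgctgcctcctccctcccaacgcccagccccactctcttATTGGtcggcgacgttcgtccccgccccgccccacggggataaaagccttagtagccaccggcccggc
Rgs2: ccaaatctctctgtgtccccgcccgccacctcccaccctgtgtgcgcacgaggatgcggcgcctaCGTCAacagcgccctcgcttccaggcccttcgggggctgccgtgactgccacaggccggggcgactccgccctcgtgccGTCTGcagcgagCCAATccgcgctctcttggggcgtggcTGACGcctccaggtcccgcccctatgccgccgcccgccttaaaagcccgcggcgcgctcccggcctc

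The *Rgs16* window held 2 Smad cores, 1 CCAAT box and no cAMP core, while the *Rgs2* window held 1 Smad core, 1 CCAAT box and 2 cAMP cores. On both strands, 42.2% of 32851 windows of the same length held a Smad core, 33.8% a CCAAT box and 17.8% a cAMP core. The E-box letters that Zeb repressors bind (CACCTG or CAGGTG), present in 17.2% of windows, were in neither. No motif matches overlapped in these windows. GC content was 66.4% for *Rgs16* and 72.4% for *Rgs2*, against a median of 52.4%. The window of *Rgs4*, a member at background in both groups, held the same counts as that of *Rgs2*, 1 Smad core, 1 CCAAT box and 2 cAMP cores. A window of *Rgs12*, a member that was higher, held 3 Smad cores and 1 cAMP core, and another held no match. The windows of *Rgs10*, *Rgs17* and *Rgs19* held no match. A match is a description of letters, and its use in these cells was not measured.

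*Rgs16*, an R4 protein that acts on Gi and Gq subunits, was 13.0-fold higher in long-term EMT cells. Its log2 values were 6.06, 6.44 and 6.29 in control cells and 10.27, 9.80 and 9.81 in long-term EMT cells. The groups lay far apart, with each long-term EMT array above each control array and no array between them. The group means were 6.26 ± 0.19 (SD, n = 3) and 9.96 ± 0.27 (SD, n = 3), a log2 difference of 3.70 (standard error 0.17). By that difference *Rgs16* was number 4 from the top of 18820 genes.

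*Rgs2*, an R4 protein known for its preference for Gq, went the other way. Its log2 values were 7.52, 6.92 and 6.47 in control cells and 4.85, 4.21 and 4.21 in long-term EMT cells. All long-term EMT arrays lay below all control arrays, and in both groups replicate 1 was the highest, by 0.825 over the mean of the other controls and by 0.64 over the mean of the other long-term EMT arrays. The means were 6.97 ± 0.53 and 4.42 ± 0.37 (SD, n = 3 each), a log2 difference of -2.55 (standard error 0.30), or 5.84-fold lower. The long-term EMT mean lay just under the background level, so that the size of this difference may be a lower bound. *Rgs2* was number 84 from the bottom of the 18820 genes.

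*Rgs12*, a large R12 protein that also holds PDZ, Ras-binding and GoLoco domains, was 2.04-fold higher in long-term EMT cells. It had log2 values of 7.55, 7.80 and 7.63 in control cells and 8.60, 8.71 and 8.76 in long-term EMT cells. The spread within each group was small beside the gap between them, with means of 7.66 ± 0.13 and 8.69 ± 0.08 (SD, n = 3 each). The log2 difference was 1.03 (standard error 0.10).

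*Rgs16*, *Rgs12* and *Rgs2* were the members that met the criterion, 3 of 9, beside 2.96% of all genes. Since the symbols were proposed with this contrast known, the count is not evidence about the family. The median log2 difference of the 9 members was 0.14, and that of all genes 0.02. *Rgs16* and *Rgs12* met the criterion in all 6 fits that left out 1 array. *Rgs2* met it in 3 of 6, and not without control replicate 2, long-term EMT replicate 2 or long-term EMT replicate 3, where its log2 difference was -2.57, -2.44 and -2.44. Over all probe sets those fits called 109, 107 and 135 higher and 115, 98 and 113 lower, against 353 and 330 with all arrays.

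**Figure D1:**
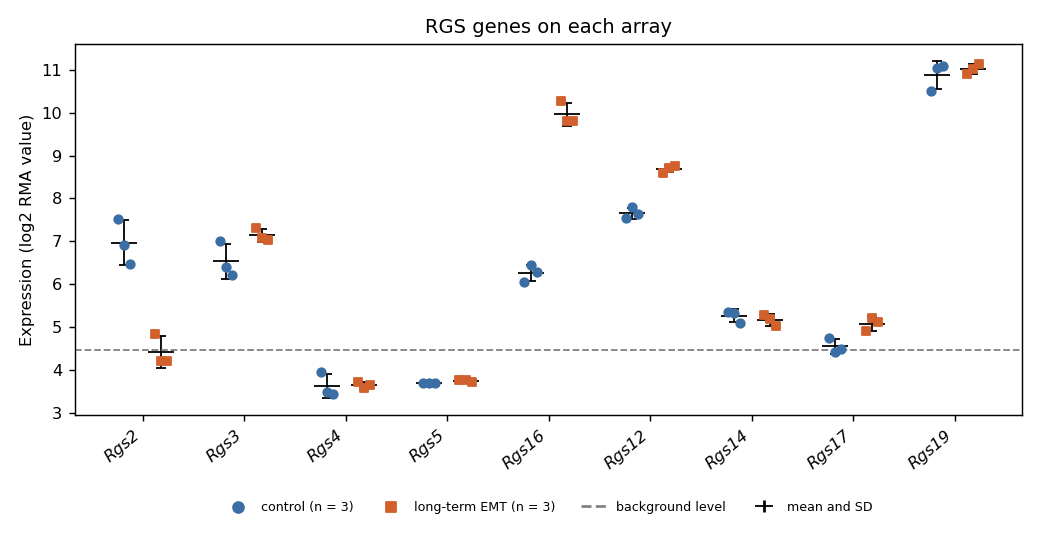
The y axis gives the log2 RMA value of the 9 RGS genes on every array, with circles for the 3 control arrays, squares for the 3 arrays of long-term EMT, group means with their SD in black and a dashed line at the background level (4.48). *Rgs16* and *Rgs12* lie higher and *Rgs2* lower on all long-term EMT arrays, while *Rgs4* and *Rgs5* lie under the dashed line on every array.

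*Rgs3* and *Rgs17* were higher on all long-term EMT arrays without meeting the criterion. *Rgs3* encodes an R4 protein with long and short forms, and its brighter probe set read 7.0, 6.39 and 6.22 in control cells and 7.32, 7.07 and 7.04 in long-term EMT cells. Control replicate 1 nearly reached the long-term EMT arrays, 0.695 above the mean of the other controls. The log2 difference was 0.61 (standard error 0.21), and 0.84 without control replicate 1, where the criterion was met. A second, dimmer probe set of *Rgs3* read 4.98, 4.71 and 4.72 in control cells and 5.42, 5.43 and 5.38 in long-term EMT cells. It gave the same log2 difference of 0.61 with a smaller standard error of 0.10, and met the criterion, so that the probe sets agree in size and differ in the spread between arrays.

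*Rgs17*, an RZ protein that acts on Gz and Gi subunits, read 4.74, 4.43 and 4.48 in control cells and 4.90, 5.21 and 5.12 in long-term EMT cells. The groups did not overlap, although the control arrays lay at about the background level. The log2 difference was 0.53 (standard error 0.12), a 1.44-fold difference and so under the fold that the criterion asks for.

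*Rgs19*, the other RZ member, also called GAIP, differed little. It read 10.50, 11.04 and 11.10 in control cells and 10.90, 11.02 and 11.14 in long-term EMT cells. The groups overlapped, and the log2 difference of 0.14 (standard error 0.17) was smaller than its standard error and turned to -0.05 without control replicate 1, the lowest array. *Rgs14*, an R12 protein with Ras-binding domains and a GoLoco motif, read 5.36, 5.34 and 5.09 in control cells and 5.28, 5.20 and 5.02 in long-term EMT cells. Its groups overlapped too, with a log2 difference of -0.10 (standard error 0.11).

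*Rgs4*, best known from neurons and heart, and *Rgs5*, a marker of pericytes and vascular smooth muscle, lay under the background level on every array. *Rgs4* read between 3.45 and 3.96 and *Rgs5* between 3.69 and 3.76. The long-term EMT arrays of *Rgs5* all lay above its control arrays, by a log2 difference of only 0.05 (standard error 0.07), less than its standard error. Of the 9 members, 6 had groups that did not overlap, *Rgs2*, *Rgs3*, *Rgs5*, *Rgs12*, *Rgs16* and *Rgs17*, beside 24.1% of all genes (12.6% with all long-term EMT arrays above and 11.5% with all below). Of 7 other markers of pericytes and fibroblasts none passed (limma), beside 2.96% of all genes, and 2 had an unadjusted p under 0.05. Those were the PDGF receptor genes, both well above the background level and lower on all long-term EMT arrays. *Pdgfrb* read 9.91, 9.55 and 10.29 in control cells and 7.96, 9.07 and 8.79 in long-term EMT cells (log2 difference -1.31, standard error 0.32, limma adjusted p = 0.126). *Pdgfra* read 8.96, 8.26 and 7.78 in control cells and 7.66, 7.42 and 7.06 in long-term EMT cells (log2 difference -0.95, standard error 0.31, limma adjusted p = 0.248). *Kcnj8* and *Abcc9* had both group means under the background level, and the mean of the list lay between 5.72 and 6.18 on control arrays and between 5.48 and 5.67 on long-term EMT arrays.

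**Figure D2:**
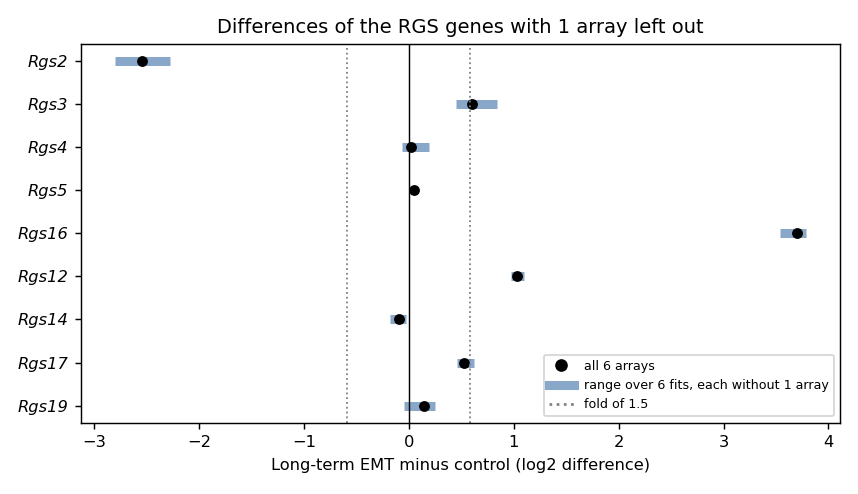
Log2 difference between long-term EMT and control cells for each of the 9 RGS genes with all 6 arrays (points), and the range over 6 fits that each left out 1 array (bars). *Rgs16* stays between 3.54 and 3.79, *Rgs12* between 0.98 and 1.10 and *Rgs2* between -2.80 and -2.27, while the bars of *Rgs4* and *Rgs19* cross 0.

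The rest of the RGS family, which the 10 symbols leave out, gave no gene that passed, beside 2.96% of all genes. The 10 symbols were proposed with this contrast known, so the count among the genes left out is not evidence about them. It comprises 9 measured genes, *Rgs1*, *Rgs6*, *Rgs7*, *Rgs8*, *Rgs9*, *Rgs11*, *Rgs13*, *Rgs18* and *Rgs20*, of which 0 of 9 passed (limma), 1 of 9 had an unadjusted p under 0.05, and 0 passed by the methods' t-test with the same fold. Their median log2 difference was 0.03, with a range from -0.11 to 0.46. The gene at the upper end was *Rgs8*, an R4 gene best known from the brain, which read 5.09, 5.07 and 5.13 in control cells and 5.51, 5.64 and 5.52 in long-term EMT cells. Its groups did not overlap and its adjusted p was 0.0383 (limma), as for 3.35% of all genes at an adjusted p under 0.05, but its difference was 1.38-fold and so too small to pass. In the 6 fits without 1 array its adjusted p lay between 0.0602 and 0.164. *Rgs1*, *Rgs13* and *Rgs18*, which are known from leukocytes and platelets, and *Rgs6* and *Rgs7*, which are known from neurons, had both group means under the background level. *Rgs21*, *Rgs22* and *Rgsl1* were not analysed here.

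**Figure D3:**
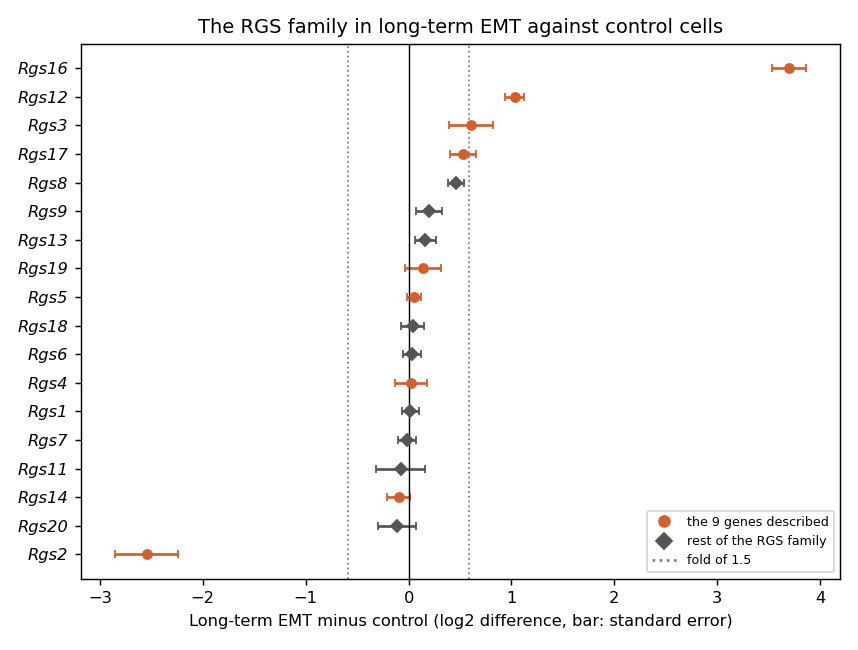
Log2 difference between long-term EMT and control cells (x axis, bars are standard errors) for the 9 RGS genes described (circles) and the other 9 measured genes of the family (diamonds). Dotted lines mark a fold of 1.5, and *Rgs16*, *Rgs12* and *Rgs3* lie beyond the right line and *Rgs2* beyond the left one.

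The family is clustered on mouse chromosome 1, which holds 12 of its 22 annotated genes. *Rgs2*, *Rgs13*, *Rgs1*, *Rgs21* and *Rgs18* follow each other with no other protein-coding gene between them in RefSeq (GRCm38.p6), and so do *Rgs8* and *Rgs16*, and *Rgs5* and *Rgs4*. *Rgs13*, *Rgs1* and *Rgs18*, beside *Rgs2*, had log2 differences of 0.16, 0.02 and 0.04, but their control means were already under the background level, where a fall is hard to read. Of the 5 nearest measured protein-coding genes on each side of *Rgs2*, 0 of 10 passed (limma), with log2 differences between -0.54 (*Brinp3*) and 0.39, and 3 had an unadjusted p under 0.05. Of the 10 around *Rgs16*, *Npl*, which encodes a sialic acid lyase and lies on the far side of *Rgs8*, rose, with log2 values of 4.58, 4.26 and 4.51 in control cells and 5.57, 5.71 and 5.13 in long-term EMT cells (difference 1.02, standard error 0.17, limma adjusted p = 0.0422), and the other 9 did not pass. *Npl* passed in 1 of the 6 fits without 1 array, with log2 differences from 0.90 to 1.19, and lost the test with control replicate 1, 2 or 3 or with long-term EMT replicate 1 or 2 left out. Of the 10 around *Rgs12*, on chromosome 5, 0 passed (limma) and 1 had an unadjusted p under 0.05. These neighbourhoods were chosen after the values of the members had been seen, and 2.96% of all genes met the criterion.

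Patterns like those of *Rgs16* and *Rgs2* were looked for among all genes by the root mean square distance between log2 values over the 6 arrays, each gene centred on its own mean. Since the distance is taken over both groups, these genes differ between them by construction, and no test is given. Closest to *Rgs16* were *Tmprss11f*, a membrane serine protease, at a distance of 0.23, *Srpx2*, a secreted sushi-repeat protein, at 0.29, and *Tnc*, the matrix protein tenascin C, at 0.37. Their log2 differences were 3.32, 3.93 and 3.27. Closest to *Rgs2* were *Atp8b1*, a phospholipid flippase, at 0.13, *Susd4*, a regulator of complement, at 0.15, and *Kank1*, a cortical adaptor protein, at 0.16. Their log2 differences were -2.58, -2.72 and -2.30. Replicate 1 was the highest array in each group for these 3 genes, as for *Rgs2*, which the choice by distance over all arrays favours. Control replicate 1 was also the highest control for *Cdh1* and *Grk5*, and the lowest for *Rgs16* and *Rgs19*.

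**Figure D4:**
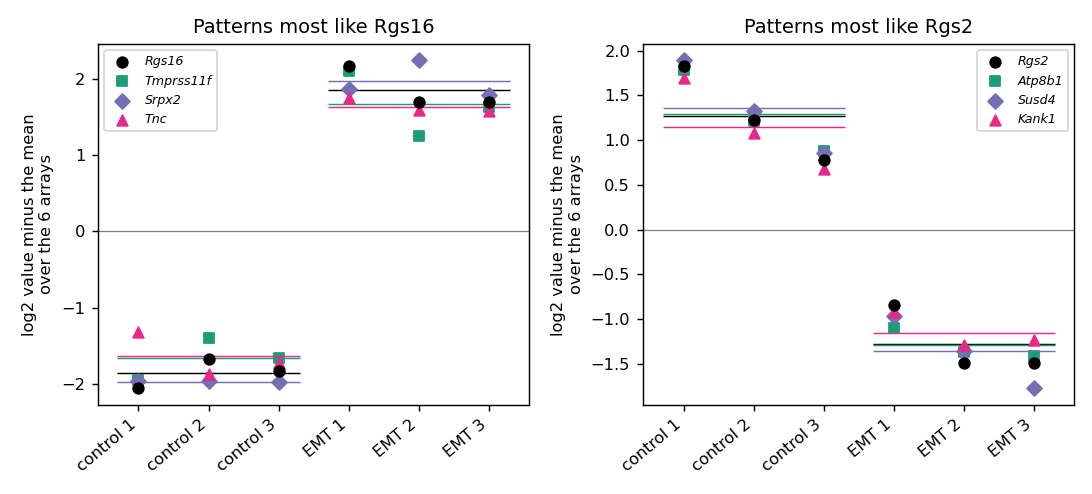
Log2 values on each array minus the gene's mean over the 6 arrays, for *Rgs16* (left) and *Rgs2* (right) and the 3 genes closest to each, with horizontal lines at each group's mean. *Atp8b1*, *Susd4* and *Kank1*, chosen by their distance to *Rgs2* over all 6 arrays, share with it the highest control value in replicate 1. *Rgs16* has its lowest control value there.

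RGS proteins act on Gα subunits, of which 16 of 16 were measured and 0 passed (limma), beside 2.96% of all genes. An unadjusted p under 0.05 (limma) was found for 2 of 16, and 1 passed by the methods' t-test before adjustment. The median log2 difference was -0.01. Those at an unadjusted p under 0.05 were *Gnaq*, the common Gq subunit, with a log2 difference of -0.43 (standard error 0.12, limma adjusted p = 0.164), and *Gna15*, a Gq-class subunit that couples to many receptors, with -1.0 (standard error 0.22, adjusted p = 0.0943). *Gna15* read 6.63, 5.83 and 6.01 in control cells and 5.11, 5.00 and 5.36 in long-term EMT cells. Its groups did not overlap, and without control replicate 1, the highest array, it passed with a log2 difference of -0.76 (adjusted p = 0.0491). The Gi subunits *Gnai2* and *Gnai3*, targets of *Rgs16*, *Rgs12* and *Rgs19* proteins, had log2 differences of -0.08 and -0.003 (standard errors 0.08 and 0.07).

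Among the Gβ and Gγ subunits 2 of 15 rose and none fell, beside 1.47% of all genes called higher and 1.49% called lower. The lists were chosen with earlier results of these data known, so the count is not evidence about the subunits. *Gng11*, a Gγ subunit, rose 7.34-fold, from log2 values of 6.53, 5.68 and 5.16 in control cells to 8.84, 8.61 and 8.55 in long-term EMT cells, a log2 difference of 2.88 (standard error 0.33, limma adjusted p = 0.0127). *Gng2*, another Gγ subunit, rose 2.78-fold, from 7.73, 7.93 and 7.07 to 9.04, 9.13 and 8.98, a log2 difference of 1.47 (standard error 0.22, adjusted p = 0.0292). The controls of both genes were spread widely and their long-term EMT arrays lay close together. *Gnb4*, a Gβ subunit, had a log2 difference of 1.01 (standard error 0.23, adjusted p = 0.102). The median of the list was 0.10, and *Gnb4*, *Gnaq*, *Gna15*, the Gi subunits and the examples below that did not pass were named after their values were seen.

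Among effectors of G proteins, 12 adenylyl cyclases and phospholipases C-β were measured. *Plcb1* fell, *Adcy2* rose and 10 did not pass, where 2.96% of all genes met the criterion in either direction. The median log2 difference of the list was 0.10. *Plcb1*, a phospholipase that Gq activates, read 6.44, 6.15 and 5.80 in control cells and 4.96, 4.91 and 4.84 in long-term EMT cells, a log2 difference of -1.23 (standard error 0.16, limma adjusted p = 0.0206). *Adcy2*, an adenylyl cyclase that Gβγ stimulates, read 4.49, 4.52 and 4.44 in control cells, at the background level, and 5.09, 5.68 and 5.38 in long-term EMT cells, a log2 difference of 0.90 (standard error 0.15, adjusted p = 0.0422). The groups did not overlap for either gene.

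Other proteins that carry an RGS domain include G protein-coupled receptor kinases, axins and sorting nexins. Of 13 measured, 1 fell and 12 did not pass, beside 1.49% of all genes called lower. The median log2 difference of the list was 0.03. *Grk5*, a kinase that silences active receptors, read 9.23, 8.82 and 8.42 in control cells and 7.15, 7.30 and 7.23 in long-term EMT cells, 3.02-fold lower (log2 difference -1.60, standard error 0.20, limma adjusted p = 0.0164). Of 8 other G protein regulators 0 passed (limma), beside 2.96% of all genes. Of these 8, 3 had an unadjusted p under 0.05 (limma) and 1 passed by the methods' t-test before adjustment. *Gpsm2*, a GoLoco protein of the mitotic spindle, was nearest to the threshold with a log2 difference of -0.74 (standard error 0.13, adjusted p = 0.0532). It passed without control replicate 1 with a log2 difference of -0.61 (adjusted p = 0.0353). Of 7 partners and turnover genes of RGS proteins 1 met the criterion, beside 2.96% of all genes. This was *Gpr158*, a receptor that holds R7 proteins at the membrane, with a log2 difference of 0.61 (standard error 0.09, limma adjusted p = 0.0313). However, both its group means lay under the background level. *Ate1*, *Ubr1* and *Ubr2*, enzymes of the N-degron pathway that destroys the *Rgs4*, *Rgs5* and *Rgs16* proteins, did not pass, with log2 differences of 0.16, 0.19 and 0.40.

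Of 40 measured G protein-coupled receptors for lysophospholipids, thrombin, nucleotides, prostaglandins, amines and peptides, 2 rose and 38 did not pass. The share of all genes called higher was 1.47%, and the median log2 difference of the list was 0.05. *P2ry12*, a Gi-coupled ADP receptor, read 7.79, 7.63 and 7.58 in control cells and 9.08, 8.90 and 8.47 in long-term EMT cells (log2 difference 1.15, standard error 0.17, limma adjusted p = 0.0264). *P2ry14*, a Gi-coupled receptor for UDP-sugars, read 6.59, 6.35 and 6.61 in control cells and 7.10, 7.13 and 7.09 in long-term EMT cells (log2 difference 0.59, standard error 0.09, adjusted p = 0.0354), just past the fold threshold. The groups of both genes did not overlap.

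Most of these calls were lost in fits with fewer arrays, and so were many over all probe sets. With all arrays 353 probe sets were called higher and 330 lower. Without control replicate 2 these counts were 109 and 115, and without long-term EMT replicate 2 they were 107 and 98. Without control replicate 1 they rose to 472 and 482. In the 6 fits that left out 1 array, *Gng11*, *Gng2*, *Plcb1*, *Grk5* and *P2ry12* passed in 2 fits each, *Adcy2* and *P2ry14* in 1 each and *Gpr158* in 0. None of the 8 passed without control replicate 2 or without long-term EMT replicate 2, where the log2 differences were 2.82 and 2.90 for *Gng11*, 1.65 and 1.43 for *Gng2*, -1.22 and -1.23 for *Plcb1* and -1.60 and -1.63 for *Grk5*. Without long-term EMT replicate 1 *Adcy2* passed and the other 7 did not, and without long-term EMT replicate 3 *P2ry12* passed and the other 7 did not. Without control replicate 3 *Gng11*, *Gng2*, *Plcb1* and *Grk5* passed, with log2 differences of 2.56, 1.22, -1.39 and -1.80. Without control replicate 1 the same 4 genes, *P2ry12* and *P2ry14* passed.

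**Figure D5:**
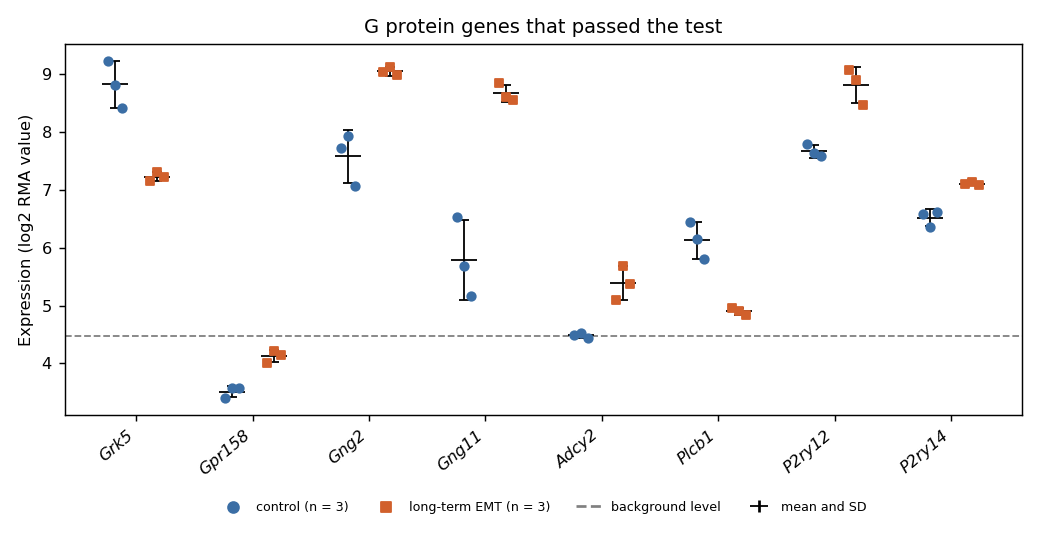
The y axis gives the log2 RMA value of the 8 genes outside the RGS family that passed in the G protein lists, on every array, with circles for the 3 control arrays, squares for the 3 arrays of long-term EMT, group means with their SD in black and a dashed line at the background level (4.48). *Grk5* and *Plcb1* are lower and the other 6 genes higher on all long-term EMT arrays, and *Gpr158* stays under the dashed line.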

How the data were processed

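RNA of 6 samples was hybridised to Affymetrix MoGene-1_1-st-v1 arrays. The authors deposited log2 values from RMA (background correction, quantile normalization and probe summary) made in Expression Console, whose version is not given in the sources used here, rounded to 2 decimals. RMA draws arrays to a common distribution, so a shift shared by most genes cannot be seen, and the number of arrays limits precision. The labels number the replicates, and the methods call the array samples triplicates. A general statement on statistics names independent experiments run in triplicate, without saying whether the array samples came from separate experiments. Each p-value therefore reflects only how far these samples varied, and that variation may be technical.

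Of 35556 probe sets, 21218 carried 1 gene symbol in the platform annotation, 1881 several and 12457 none. Each gene was read from its 1-symbol probe set with the highest mean over the 6 arrays. Long-term EMT was compared with control by limma 3.58.1 (R 4.3.3, lmFit and eBayes) on all probe sets, with Benjamini-Hochberg adjustment, and a call needed a fold above 1.5 with adjusted p under 0.05. Standard errors of differences come from this fit, which draws the variance of each probe set toward a value common to all. Tested on simulated data for this comparison with 35556 probe sets, it recovered 66 of 100 changes of 2-fold and 93 of 100 of 4-fold with 2 false calls. The simulated noise was independent between arrays and only 200 probe sets were changed. The number of false calls among the real ones therefore cannot be read from the simulation. The members and the lists of other genes were chosen with earlier results of these data known. Named genes were all members, up to 4 genes per list with the largest difference among those that passed, and the 3 genes closest to *Rgs16* and to *Rgs2*. Genes named beside these, most of which did not pass, were chosen as examples after their values were seen. Neighbours and promoter windows came from RefSeq (GRCm38.p6), where 17894 of 18820 genes matched by Entrez ID. Alternatives were a replicate block, a second quantile normalization, equal array medians, leaving out dim probe sets, a trended and robust prior, the methods' t-test, other fold thresholds and leaving out each array.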

Additional observations from a re-analysis of the deposited data

How the results depend on the processing

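No named gene that met the criterion changed direction under the alternatives run for it. Among all probe sets 353 higher and 330 lower passed, against 638 and 688 by the methods' t-test before adjustment, 43 and 26 after it, 194 higher with a fold above 2, and 107 to 472 higher and 98 to 482 lower without 1 array. The same-numbered arrays of the groups deviated together with r = 0.188, 0.0203 and 0.249, and arrays of different numbers with r from -0.267 to 0.142. Control replicate 2 correlated best with long-term EMT replicate 3 (0.142). The labels do not say that the numbers are pairs and these values do not decide it, so the main fit is unpaired. With a replicate block the standard error was 0.12 in place of 0.30 for *Rgs2*, 0.09 in place of 0.10 for *Rgs12* and 0.19 in place of 0.17 for *Rgs16*. With a replicate block 256 probe sets were higher and 278 lower, *Rgs2*, *Rgs12* and *Rgs16* still met the criterion, 0 partner genes and 0 neighbours of *Rgs16* passed, and 1 other regulator (*Arrb1*, a β-arrestin, log2 difference -1.43, adjusted p = 0.038 with the block and 0.488 without it), 1 effector and 1 receptor did. Of the members 3 met the criterion, 1 by the adjusted t-test and 2 to 4 without 1 array. By that adjusted t-test 0 genes passed among other RGS-domain proteins, partners, Gβ and Gγ subunits, effectors, receptors and neighbours of *Rgs16*, and before adjustment 1 Gα subunit and 1 other regulator passed. Quantile normalization left 0 partners and 0 neighbours of *Rgs16*, equal medians 0 partners, 1 other regulator and 1 receptor, leaving out dim probe sets 0 partners and 1 other regulator, and the trended prior 1 receptor. With no fold threshold 1 gene of the rest of the RGS family and 2 neighbours of *Rgs16* passed, and with a fold above 2, 0 partners, 1 effector and 1 receptor. Without 1 array, 0 to 1 other RGS-domain proteins, 0 to 0 partners, 0 to 1 Gα subunits, 0 to 2 Gβ and Gγ subunits, 0 to 1 other regulators, 0 to 1 effectors, 0 to 2 receptors and 0 to 1 neighbours of *Rgs16* passed. The log2 difference of *Rgs5*, at background, moved to 0.03 with quantile normalization and 0.025 with equal medians, and *Rgs4* took values on both sides of 0. The neighbours and the count of members were added after seeing the data. The cause of these shifts was not tested. Signal over background limits the differences of *Rgs4* and *Rgs5* in both groups and of *Rgs2* in long-term EMT cells.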
